A study of Drosophila melanogaster with 14 samples.

Results

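The 29 genes whose symbols begin with Jon and a digit, with Mal-A or Mal-B and a digit, or with Amy were followed through polyadenylated RNA of whole Drosophila melanogaster larvae of instar 3, the last before the pupa. They were taken by symbol from the 17869 genes of the expression table, and comprised 16 Jonah proteases, 10 maltases and 3 amylases. These families were chosen with earlier results of these data known. The tested genotypes were the Sep2[2] Sep5[2] double mutant (4 libraries), the Sep2[2] mutant (3 libraries) and the Sep5[2] mutant (3 libraries), and the control was w1118 (4 libraries), all reared at 25 degrees C without treatment. Sep2[2] and Sep5[2] are alleles of Septin2 and Septin5, which encode subunits of the septin filaments that assemble beneath the cell membrane. Each mutant genotype is named in the labels by its alleles alone, and nothing in the labels says whether its libraries came from separate cultures. P-values therefore speak to the spread among these libraries alone, and that spread could be technical.

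Jonah proteases are secreted serine endopeptidases of the chymotrypsin and trypsin fold that cut dietary protein in the larval midgut, and they are encoded by small groups of neighbouring genes that arose by duplication. Maltases are alpha-glucosidases that release glucose from maltose and other short sugars, and the Mal-A and Mal-B groups are likewise tandem duplicates. Amylases are secreted enzymes that cut starch into maltose and longer fragments upstream of the maltases. In fruit flies the midgut output of these enzymes is known to change with diet, and dietary sugar represses amylase and several maltases.

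Libraries held between 8858393 and 47203028 reads assigned to genes. Levels are given as CPM, reads relative to the library total as scaled by the authors with the TMM method, with the small count the authors added taken out. Septin2 had 0.726, 0.270, 0.669 and 9.11 CPM in the double mutants, 21.7, 29.4 and 26.2 CPM in Sep2 mutants, 78.5, 58.5 and 47.8 CPM in Sep5 mutants, and 59.1, 48.2, 46.6 and 67.2 CPM in control larvae. Septin5 was at 0.116 to 1.34 CPM in the double mutants and 0 to 0.0681 CPM in Sep5 mutants, against 6.18 to 8.01 CPM in Sep2 mutants and 3.58 to 7.84 CPM in control larvae. Replicate 4 of the double mutant thus held more Septin2 reads than the other three double mutant libraries. The TMM factors were 0.799 to 0.843 in the double mutants, 1.02 to 1.14 in Sep2 mutants, 0.900 to 1.09 in Sep5 mutants and 1.08 to 1.22 in control larvae. Genes for ribosomal RNA held 10.8 to 25.8% of reads in double mutants, 7.42 to 9.88% in Sep2 mutants, 7.43 to 13.1% in Sep5 mutants and 5.19 to 11.0% in control larvae, and its part in the results was not tested. Although the sample labels name larvae, the protocols of the same labels name adult flies. Genes of the adult stage (5 listed) summed to 1.74 to 3.76 CPM in the double mutants, 0.796 to 1.47 CPM in Sep2 mutants, 1.29 to 2.17 CPM in Sep5 mutants and 0.990 to 2.95 CPM in control larvae. Larval cuticle genes (4 listed) summed to 11166 to 17904 CPM in the double mutants, 20464 to 30828 CPM in Sep2 mutants, 19586 to 37428 CPM in Sep5 mutants and 8015 to 23255 CPM in control larvae.

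The 3 families differed widely in output. Jonah transcripts took 1.94% ± 0.411 of all reads in the double mutants, 1.75% ± 0.127 in Sep2 mutants, 2.02% ± 0.580 in Sep5 mutants and 1.33% ± 0.400 in control larvae (SD, n = 4, 3, 3 and 4). Maltase transcripts took 0.0624% ± 0.0117 in the double mutants, 0.0462% ± 0.00608 in Sep2 mutants, 0.0379% ± 0.00617 in Sep5 mutants and 0.0303% ± 0.00288 in control larvae. For amylases the shares were 0.0573% ± 0.0185 in the double mutants, 0.0470% ± 0.0158 in Sep2 mutants, 0.0522% ± 0.00703 in Sep5 mutants and 0.0254% ± 0.00734 in control larvae. Every mutant library lay above every control library in the maltase share. In the Jonah share of all reads all 3 mutants overlapped with the controls, and in the amylase share only the Sep2 mutants did. With ribosomal RNA left out of the total, the Jonah share was 2.158 to 2.812% in double mutants and 1.172 to 2.151% in control larvae. Summed Jonah CPM was 19898 to 30146 in double mutants and 9448 to 17644 in control larvae. On both of these measures the double mutants lay above the controls, and the Sep2 and Sep5 mutants still overlapped with them. In whole larvae, a change in the number of cells of a type and a change in RNA per cell cannot be told apart.

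**Figure D1:**
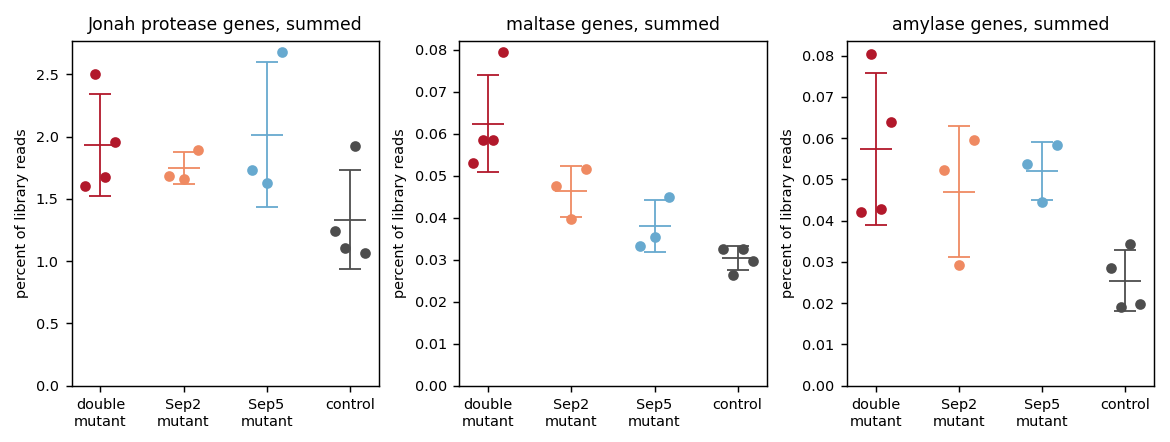
Percent of all library reads (y axis, unscaled) that fell on the 16 Jonah, 10 maltase and 3 amylase genes in each library (points), by genotype (x axis), with the mean and SD as bars. The double mutants averaged 1.94% for Jonah genes, against 1.33% in control larvae, and 0.0624% for maltases, against 0.0303% in control larvae.

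Per kilobase of exon, the Jonah genes spanned a wide range of levels in control larvae. Jon65Aiv (2682 CPM per kb), Jon66Ci (2111 CPM per kb) and Jon65Aiii (1927 CPM per kb) led there, and Jon74E was lowest at 4.43 CPM per kb. In the double mutants the order began with Jon99Cii (4841 CPM per kb), Jon66Ci (4711 CPM per kb) and Jon65Aiv (3612 CPM per kb), and Jon74E was again lowest at 16.7 CPM per kb. Jon99Cii held the fifth place of the 16 in control larvae, at 880.0 CPM per kb. Among maltases, Mal-A5 was highest per kilobase in both the double mutants (104 CPM per kb) and control larvae (70.2 CPM per kb). Amy-p stood at 229 CPM per kb in the double mutants and 55.2 CPM per kb in control larvae, while Amy-d stood at 186 CPM per kb in the double mutants and 74.8 CPM per kb in control larvae. Amyrel was far lower, at 8.87 CPM per kb in the double mutants and 7.47 CPM per kb in control larvae.

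In the double mutant, most of these digestive enzymes were higher than in the control. Of the 29 genes, all of which passed the filter on low values, 22 were called (75.9%), where 45.0% of all 12586 genes tested were called in the same comparison. Of these, 19 were called higher (65.5%), where 22.5% of all genes tested were called higher. Another 3 were called lower (10.3%), where 22.5% of all genes tested were called lower. Calls are at a limma adjusted p under 0.05 over all genes tested. Because the families were chosen with earlier results known, these shares, here and in the other comparisons, only describe the members. Jonah genes split, with 8 called higher and 3 lower of 16, whereas 9 of 10 maltases and 2 of 3 amylases were called higher and none of either family lower. The median log2 fold change was 0.88 over Jonah genes, 1.39 over maltases and 1.24 over amylases, against -0.01 over all genes tested. Library ranges did not overlap for 17 members higher in the double mutant (20.6% of all genes tested) and for 2 lower in it (19.4% of all genes tested). Without the TMM factor, which moves the median of all genes to -0.47, 15 members were called higher and 4 lower, with medians of 0.41 for Jonah genes, 0.93 for maltases and 0.78 for amylases. This scaling was chosen after seeing the data. Without replicate 4 of the double mutant, 18 members were called higher and 3 lower. Quantile normalization gave 18 higher and 5 lower, with medians of 0.55 for Jonah genes, 1.39 for maltases and 1.10 for amylases. Sample weights gave 19 higher and 3 lower, with medians of 0.36, 1.28 and 0.80 in the same order.

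**Figure D2:**
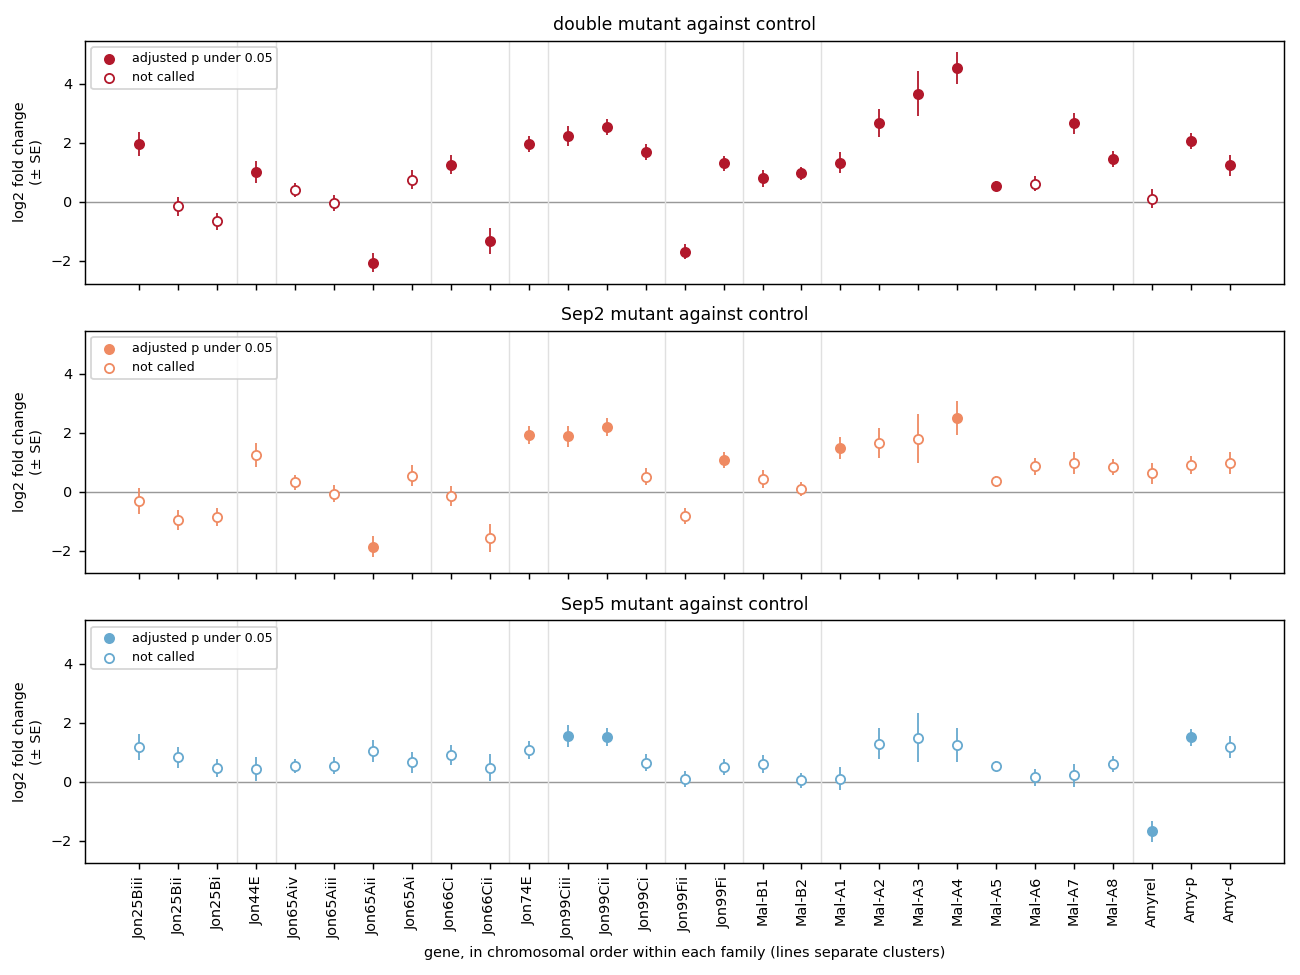
Log2 fold change against the control (y axis, ± SE of the limma fit) for each of the 29 genes (x axis, chromosomal order within Jonah, maltase and amylase genes, grey lines between gene clusters), with 1 panel per mutant. Filled points passed an adjusted p of 0.05. In the double mutant 22 genes passed, with Mal-A4 highest at 4.55 and Jon65Aii lowest at -2.06. In Sep2 mutants 7 passed and in Sep5 mutants 4.

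The 2 largest Jonah increases in the double mutant were in the 99C cluster on chromosome arm 3R (build BDGP6, as are all positions here), where Jon99Ciii, Jon99Cii and Jon99Ci follow one another with gaps of 298 and 610 bases and no annotated gene between them. All 3 rose in the double mutant. Jon99Cii has a single exon (3R, 29923754 to 29924615, minus strand). It had 4021, 4413, 3942 and 4314 CPM in the double mutants, 3114, 2719 and 4287 CPM in Sep2 mutants, 1668, 1699 and 3070.2 CPM in Sep5 mutants, and 685, 643, 1192 and 514 CPM in control larvae. Every mutant library lay above all 4 controls, and the double mutants lay above all Sep5 mutants but overlapped with the Sep2 mutants. In the double mutant its log2 fold change was 2.53 ± 0.27 (limma adjusted p = 2.01e-05). Jon99Ciii had 2138, 4416, 2322 and 3332 CPM in the double mutants, 1880.0, 1783 and 3536 CPM in Sep2 mutants, 1349.6, 1501 and 2919 CPM in Sep5 mutants, and 689, 483, 954 and 470.1 CPM in control larvae. All mutant libraries again exceeded the controls, while the 3 mutant genotypes overlapped with one another. Its log2 fold change in the double mutant was 2.23 ± 0.34 (limma adjusted p = 0.000232). The third gene, Jon99Ci, averaged 494 ± 53.4 CPM in the double mutants, 218 ± 36.5 CPM in Sep2 mutants, 237 ± 33.1 CPM in Sep5 mutants and 165 ± 80.8 CPM in control larvae (SD, n = 4, 3, 3 and 4). Jon99Ci rose in the double mutant by 1.70 ± 0.26 (limma adjusted p = 0.000258) on the log2 scale, and its double mutant libraries lay above all libraries of the other genotypes.

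Jon74E, a lone gene on chromosome arm 3L, was the Jonah gene of lowest level per kilobase in every genotype. Jon74E had 11.5, 16.7, 13.9 and 18.1 CPM in the double mutants, 14.1, 13.8 and 15.4 CPM in Sep2 mutants, 11.5, 6.97 and 6.42 CPM in Sep5 mutants, and 5.84, 3.68, 2.17 and 4.29 CPM in control larvae. No mutant library reached down to the controls. In the double mutant the log2 fold change was 1.95 ± 0.28 (limma adjusted p = 0.000132). Jon25Biii, on arm 2L, is the outermost of a cluster of 3 genes. Jon25Biii had 1701, 4761, 2035 and 3382 CPM in the double mutants, 609, 553 and 531 CPM in Sep2 mutants, 1840.1, 835 and 2492 CPM in Sep5 mutants, and 585, 456, 1360.3 and 652 CPM in control larvae. The double mutants stood above all controls and all Sep2 mutants, with replicate 2 highest. Its log2 fold change in the double mutant was 1.97 ± 0.40 (limma adjusted p = 0.00162). Its neighbour Jon25Bii averaged 554 ± 199.6 CPM in the double mutants, 306 ± 71.5 CPM in Sep2 mutants, 1057 ± 314 CPM in Sep5 mutants and 620.1 ± 246 CPM in control larvae, a log2 fold change of -0.15 (SE 0.32, limma adjusted p = 0.733) in the double mutant that was not called. Jon25Bi averaged 295 ± 42.4 CPM in the double mutants, 272 ± 115 CPM in Sep2 mutants, 644 ± 139 CPM in Sep5 mutants and 486 ± 179 CPM in control larvae. Its log2 fold change of -0.66 (SE 0.28, limma adjusted p = 0.0689) in the double mutant was not called either, though it was without the TMM factor, at -1.13 (adjusted p = 0.00337, range over the alternatives 0.00337 to 0.298).

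At 66C and 99F, neighbouring Jonah genes went opposite ways in the double mutant. Jon66Ci (3L, 8391540 to 8392377, plus strand) and Jon66Cii (3L, 8392820 to 8393649, minus strand) lie 442 bases apart on opposite strands. Jon66Ci had 3595, 3983, 3508 and 4705 CPM in the double mutants, 1094, 1711 and 1716 CPM in Sep2 mutants, 2979, 1996 and 4719 CPM in Sep5 mutants, and 1331, 1489, 3089 and 1169 CPM in control larvae. Its double mutant libraries exceeded all controls, and its log2 fold change was 1.26 ± 0.32 (limma adjusted p = 0.00615). Jon66Cii had 115, 128, 101 and 291 CPM in the double mutants, 91.8, 205 and 96.5 CPM in Sep2 mutants, 545, 328 and 698 CPM in Sep5 mutants, and 285, 250.5, 840.3 and 282 CPM in control larvae. Replicate 4 of the double mutant overlapped with the controls, and replicate 3 of the control stood far above the other controls. The log2 fold change was -1.32 ± 0.43 (limma adjusted p = 0.0221), and this call was lost without control replicate 3 (adjusted p = 0.068) or without any 1 of double mutant replicates 1 to 3 (adjusted p = 0.0517 to 0.0627). The log2 ratio of Jon66Cii to Jon66Ci was -4.76 ± 0.50 in the double mutants, -3.60 ± 0.54 in Sep2 mutants, -2.60 ± 0.15 in Sep5 mutants and -2.18 ± 0.30 in control larvae (mean ± SD).

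The 99F pair, Jon99Fii (3R, 30487016 to 30487928, minus strand) and Jon99Fi (3R, 30488963 to 30489895, plus strand), lies 1034 bases apart with the genes pointing away from each other. Jon99Fi had 1286, 1808, 1261 and 1281 CPM in the double mutants, 1314, 1088 and 1192 CPM in Sep2 mutants, 834, 616 and 965 CPM in Sep5 mutants, and 539.9, 481, 939 and 408 CPM in control larvae. The double mutants and the Sep2 mutants lay above all controls, with replicate 2 of the double mutant highest. Jon99Fii had 145, 169.6, 132 and 179 CPM in the double mutants, 267, 276 and 299 CPM in Sep2 mutants, 546, 385 and 724 CPM in Sep5 mutants, and 459.8, 333, 771 and 527 CPM in control larvae. Here the same 2 genotypes lay below all controls, the double mutants furthest. In the double mutant the log2 fold change was 1.31 ± 0.25 (limma adjusted p = 0.00101) for Jon99Fi and -1.69 ± 0.24 (limma adjusted p = 0.000164) for Jon99Fii. The log2 ratio of Jon99Fii to Jon99Fi was -3.16 ± 0.24 in the double mutants, -2.09 ± 0.18 in Sep2 mutants, -0.57 ± 0.14 in Sep5 mutants and -0.17 ± 0.38 in control larvae. The 4 genotypes did not overlap in this ratio apart from the Sep5 mutants and the controls.

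The 65A cluster held the largest decrease among the members, and its other genes were not called in the double mutant. Jon65Aii (3L, 6052321 to 6053215, plus strand, 2 exons) lies between Jon65Aiii and Jon65Ai. Jon65Aii had 35.5, 31.9, 40.2 and 32.3 CPM in the double mutants, 40.2, 77.8 and 20.5 CPM in Sep2 mutants, 312, 219 and 387 CPM in Sep5 mutants, and 101, 133, 213 and 156 CPM in control larvae. The double mutants and Sep2 mutants were below all controls, and the Sep5 mutants were above all of them. Its log2 fold change in the double mutant was -2.06 ± 0.33 (limma adjusted p = 0.000346). Jon65Aiv had 2874, 4656, 3060.2 and 2470.3 CPM in the double mutants, 3257, 2557 and 3187 CPM in Sep2 mutants, 3343, 2994 and 4048 CPM in Sep5 mutants, and 1919, 2074, 2989.7 and 2714 CPM in control larvae. The double mutants overlapped with replicates 3 and 4 of the control and lay above replicates 1 and 2, and the log2 fold change of 0.41 (SE 0.23, limma adjusted p = 0.168) did not pass. Jon65Aiii had 1767, 2566, 1285 and 1141 CPM in the double mutants, 1429.9, 1628 and 1651 CPM in Sep2 mutants, 2396, 2021 and 2766 CPM in Sep5 mutants, and 1252, 1621, 2339 and 1532 CPM in control larvae. The double mutant range took in all controls and all Sep2 mutants, and the Sep5 mutants lay above all Sep2 mutants, with a log2 fold change of -0.03 (SE 0.26, limma adjusted p = 0.933) in the double mutant. The Jon65Aiv value turned negative under quantile normalization, at -0.20, and without the TMM factor, at -0.06. Quantile normalization called Jon65Aiii lower (adjusted p = 0.042) and left Jon65Aii called lower. Over the alternatives the adjusted p of Jon65Aiii ran from 0.042 to 1. Jon65Ai averaged 1148 ± 257 CPM in the double mutants, 987 ± 164 CPM in Sep2 mutants, 1133 ± 564 CPM in Sep5 mutants and 714 ± 314 CPM in control larvae, and its log2 fold change of 0.75 (SE 0.32, limma adjusted p = 0.0674) did not pass.

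Jon44E, alone on chromosome arm 2R, averaged 139.7 ± 48.9 CPM in the double mutants, 164 ± 47.6 CPM in Sep2 mutants, 98.5 ± 46.7 CPM in Sep5 mutants and 71.7 ± 34.0 CPM in control larvae. Its log2 fold change in the double mutant, 1.01 ± 0.38 (limma adjusted p = 0.0427), was called, but the call was lost without control replicate 1, 2 or 4 or double mutant replicate 2 or 4 (adjusted p = 0.0714 to 0.124). An exon of Jon44E overlaps one of CG8586 on the opposite strand by 49 bases, and since no source used here tells whether counting used strand, its reads are uncertain to that extent.

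**Figure D3:**
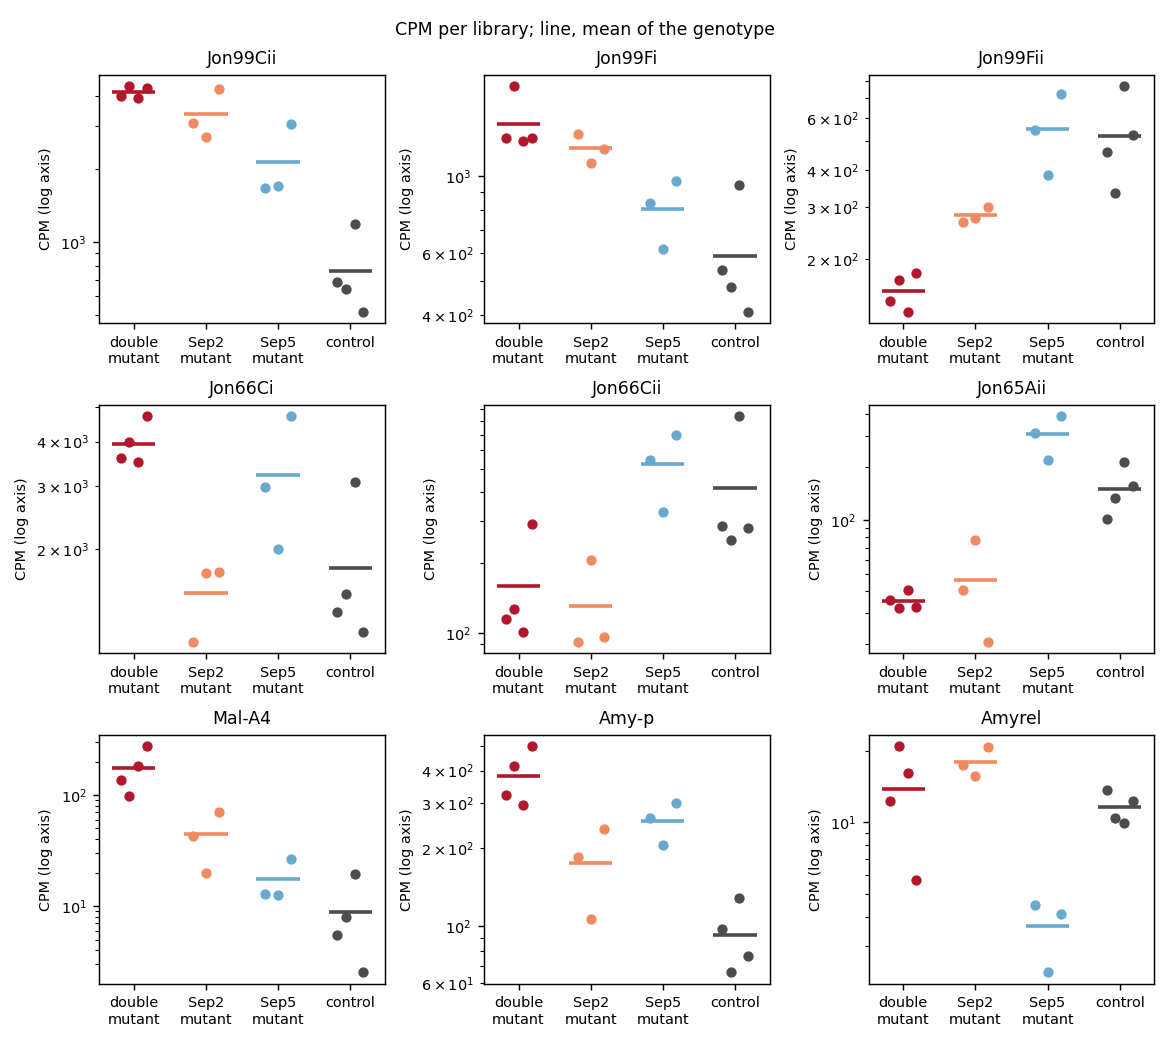
CPM in each library (y axis, log scale, points) by genotype (x axis) for 9 members, with a line at the mean of each genotype. Jon99Cii and Mal-A4 were higher in every double mutant than in every control, Jon99Fii and Jon65Aii were lower, and Amyrel was lower in every Sep5 mutant than in every control.

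These changes altered the make-up of the Jonah output. Of the summed Jonah CPM per kilobase, Jon99Cii made up 19.1% ± 2.55 in the double mutants, 22.4% ± 2.68 in Sep2 mutants, 11.0% ± 1.77 in Sep5 mutants and 6.62% ± 0.83 in control larvae (SD). Jon65Aiii made up 7.40% ± 1.97 in the double mutants, 10.4% ± 1.14 in Sep2 mutants, 12.5% ± 1.62 in Sep5 mutants and 14.9% ± 2.21 in control larvae. The double mutant ranges did not overlap with the control ranges for either gene. Jon25Biii made up 13.4% ± 3.77 in the double mutants, 3.99% ± 0.65 in Sep2 mutants, 8.90% ± 2.42 in Sep5 mutants and 6.73% ± 1.31 in control larvae, so it took a larger part in double mutants and a smaller part in Sep2 mutants than in control larvae.

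**Figure D4:**
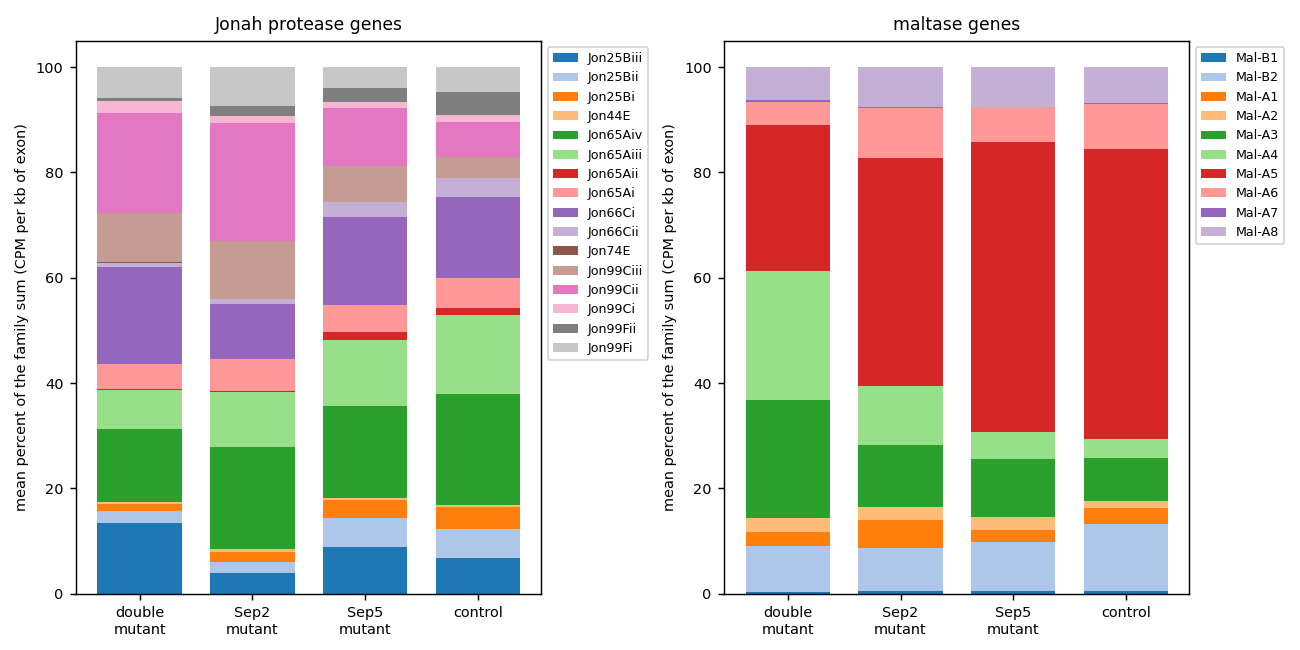
Mean percent of the summed CPM per kb of exon (y axis) that each gene contributed to the Jonah output (left) and the maltase output (right) in each genotype (x axis). Jon99Cii made up 19.1% of the Jonah sum in the double mutants, against 6.62% in control larvae, and Mal-A5 made up 27.7% of the maltase sum in the double mutants, against 54.9% in control larvae.

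The 4 largest increases among all members were maltases of the Mal-A cluster on chromosome arm 2R, Mal-A4, Mal-A3, Mal-A2 and Mal-A7. Mal-A4 (2R, 8458815 to 8460884, plus strand, up to 5 exons) and Mal-A3 (2R, 8455909 to 8457892, minus strand, up to 4 exons) are neighbours 922 bases apart. Mal-A4 had 138, 98.6, 183 and 275 CPM in the double mutants, 42.5, 19.8 and 70.4 CPM in Sep2 mutants, 12.8, 12.7 and 26.7 CPM in Sep5 mutants, and 5.50, 7.90, 19.5 and 2.53 CPM in control larvae. The double mutants lay above all other libraries. The lowest Sep2 mutant library was just above the highest control. The log2 fold change of Mal-A4 in the double mutant was 4.55 ± 0.54 (limma adjusted p = 3.67e-05). Mal-A3 had 116, 107, 152 and 275 CPM in the double mutants, 36.4, 23.4 and 81.6 CPM in Sep2 mutants, 25.3, 20.0 and 72.1 CPM in Sep5 mutants, and 13.6, 16.9, 43.8 and 1.83 CPM in control larvae. Control replicate 4 was far below the other controls, and the double mutants again exceeded every other library. The log2 fold change of Mal-A3 in the double mutant was 3.67 ± 0.77 (limma adjusted p = 0.00214), and it was 2.80 without control replicate 4 and 4.30 without control replicate 3, with a call in both cases.

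Mal-A2, Mal-A1 and Mal-A7 were low in control larvae. Mal-A2 had 14.7, 17.8, 20.2 and 32.0 CPM in the double mutants, 8.28, 7.40 and 16.3 CPM in Sep2 mutants, 4.43, 5.79 and 17.8 CPM in Sep5 mutants, and 2.31, 5.63, 4.86 and 1.47 CPM in control larvae. Double mutant and Sep2 mutant libraries exceeded all controls, and the log2 fold change in the double mutant was 2.67 ± 0.48 (limma adjusted p = 0.000666). Mal-A1 had 18.4, 20.1, 9.91 and 28.1 CPM in the double mutants, 20.9, 13.7 and 27.7 CPM in Sep2 mutants, 10.4, 4.58 and 9.03 CPM in Sep5 mutants, and 6.17, 4.62, 8.55 and 10.3 CPM in control larvae. Replicate 3 of the double mutant fell within the control range, while all Sep2 mutants lay above it. The double mutant value for Mal-A1 was 1.33 ± 0.36 (limma adjusted p = 0.00817). An exon of Mal-A1 overlaps one of Cyp4e1 on the opposite strand by 82 bases, and Cyp4e1 itself was called higher in the double mutant, at a log2 fold change of 1.05 (limma adjusted p = 0.0345). Mal-A7 had 4.15, 3.86, 1.87 and 5.13 CPM in the double mutants, 1.15, 0.680 and 1.45 CPM in Sep2 mutants, 0.477, 0.893 and 0.448 CPM in Sep5 mutants, and 0.456, 0.560, 0.607 and 0.367 CPM in control larvae. The double mutants were above every other library. Mal-A7 passed the filter on low values through the double mutant and Sep2 mutant libraries, and its log2 fold change of 2.66 ± 0.35 (limma adjusted p = 7.78e-05) became 1.62 with 1 CPM added to all values.

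Mal-A5 was the most abundant maltase and changed least among the called ones. Mal-A5 had 211, 294, 178 and 188 CPM in the double mutants, 193, 176 and 192 CPM in Sep2 mutants, 196, 205 and 236 CPM in Sep5 mutants, and 149, 127, 150.2 and 165 CPM in control larvae. All mutant libraries exceeded the controls. For the double mutant the log2 fold change was 0.54 ± 0.17 (limma adjusted p = 0.0185), and it was not called without control replicate 2 (adjusted p = 0.0608) or double mutant replicate 2 (adjusted p = 0.0566), nor without the TMM factor, when it was 0.07. Mal-A6 had 49.0, 32.0, 28.0 and 42.3 CPM in the double mutants, 52.0, 43.5 and 36.9 CPM in Sep2 mutants, 34.1, 27.1 and 20.1 CPM in Sep5 mutants, and 33.2, 16.5, 18.1 and 33.3 CPM in control larvae. Only the Sep2 mutants lay wholly above the controls, and the double mutant log2 fold change of 0.62 (SE 0.27, limma adjusted p = 0.0711) did not pass. Mal-A8 averaged 45.8 ± 19.0 CPM in the double mutants, 28.3 ± 4.42 CPM in Sep2 mutants, 24.5 ± 8.25 CPM in Sep5 mutants and 15.9 ± 2.70 CPM in control larvae, and rose in the double mutant by 1.45 ± 0.26 (limma adjusted p = 0.000673) on the log2 scale. Mal-A8 shares 6 exonic bases with mtt on the opposite strand.

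The Mal-B pair lies on chromosome arm 2L, within an intron of Pde1c on the opposite strand. Mal-B2 had 66.0, 96.1, 86.5 and 51.8 CPM in the double mutants, 35.9, 37.3 and 46.1 CPM in Sep2 mutants, 51.1, 26.9 and 40.5 CPM in Sep5 mutants, and 34.9, 32.8, 37.2 and 44.8 CPM in control larvae. The double mutants lay above all other libraries, and the log2 fold change was 0.97 ± 0.22 (limma adjusted p = 0.00324). Mal-B1 averaged 2.26 ± 0.257 CPM in the double mutants, 1.78 ± 0.563 CPM in Sep2 mutants, 2.06 ± 0.758 CPM in Sep5 mutants and 1.28 ± 0.302 CPM in control larvae. Its log2 fold change in the double mutant was 0.80 ± 0.29 (limma adjusted p = 0.0341), a call that was lost without control replicate 1, 2 or 3 or double mutant replicate 1, 2 or 3 (adjusted p = 0.0512 to 0.101).

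The maltase mixture changed with the genotype. Of the summed maltase CPM per kilobase, Mal-A5 made up 27.7% ± 9.58 in the double mutants, 43.3% ± 6.84 in Sep2 mutants, 55.1% ± 6.10 in Sep5 mutants and 54.9% ± 4.64 in control larvae. Mal-A4 made up 24.4% ± 6.54 in the double mutants, 11.2% ± 4.51 in Sep2 mutants, 5.11% ± 1.49 in Sep5 mutants and 3.75% ± 2.74 in control larvae. Mal-A3 made up 22.5% ± 5.73 in the double mutants, 11.8% ± 5.43 in Sep2 mutants, 11.1% ± 6.28 in Sep5 mutants and 8.01% ± 6.62 in control larvae. In the double mutants Mal-A3, Mal-A4 and Mal-A5 were thus of like mean size, whereas in control larvae Mal-A5 made up 48.7 to 60.0% of the sum.

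Amy-p and Amy-d, the proximal and distal copies of the alpha-amylase gene, are known as near-identical copies, whose sequences were not compared here, so reads may be divided between them by the counting. They lie at 2R, 17118636 to 17120303, minus strand, and at 2R, 17124764 to 17126369, plus strand. Amy-p had 321, 417, 295 and 497 CPM in the double mutants, 184, 106 and 238 CPM in Sep2 mutants, 262, 207 and 299 CPM in Sep5 mutants, and 97.7, 66.1, 128 and 76.3 CPM in control larvae. Double mutants and Sep5 mutants were above all controls, and the log2 fold change of Amy-p in the double mutant was 2.07 ± 0.27 (limma adjusted p = 7.68e-05). Amy-d had 194, 529.8, 196 and 279 CPM in the double mutants, 263, 135 and 324 CPM in Sep2 mutants, 329, 199 and 273 CPM in Sep5 mutants, and 121, 86.9, 178 and 95.1 CPM in control larvae. The same 2 genotypes lay above the controls, and the double mutant value was 1.24 ± 0.35 (limma adjusted p = 0.0107). Without the TMM factor Amy-d fell short of the threshold at 0.78 (adjusted p = 0.0623), within a range of 0.00687 to 0.0623 over the alternatives. The log2 ratio of Amy-d to Amy-p was -0.45 ± 0.54 in the double mutants, 0.44 ± 0.09 in Sep2 mutants, 0.05 ± 0.25 in Sep5 mutants and 0.37 ± 0.07 in control larvae.

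Amyrel, a diverged relative of amylase with low expression, followed another pattern. Amyrel had 12.3, 20.9, 16.1 and 5.70 CPM in the double mutants, 17.4, 15.7 and 20.8 CPM in Sep2 mutants, 4.49, 2.33 and 4.11 CPM in Sep5 mutants, and 13.7, 10.4, 9.91 and 12.2 CPM in control larvae. Sep5 mutants lay below every other library, Sep2 mutants lay above every control, and the double mutants spanned the control range. The double mutant log2 fold change was 0.11 (SE 0.33, limma adjusted p = 0.806) and did not pass, and it turned negative, at -0.35, without the TMM factor. Amyrel shares 31 exonic bases with gprs on the opposite strand.

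In Sep2 mutants 7 of the 29 genes were called (24.1%, against 4.50% of all genes tested), 6 higher (20.7%, against 3.26% of all genes tested) and 1 lower (3.45%, against 1.24%). This comparison and the others with the control share the 4 control libraries. Of the 3 genes at 99C, 2 were among the higher ones, Jon99Cii at a log2 fold change of 2.199 ± 0.30 (limma adjusted p = 0.000555) and Jon99Ciii at 1.88 ± 0.37 (limma adjusted p = 0.00828). Jon74E rose by 1.91 ± 0.30 (limma adjusted p = 0.00158) and Jon99Fi by 1.09 ± 0.27 (limma adjusted p = 0.0335). Among maltases, Mal-A4 rose by 2.50 ± 0.58 (limma adjusted p = 0.0237) and Mal-A1 by 1.48 ± 0.39 (limma adjusted p = 0.0423). Jon65Aii alone was lower, at -1.86 ± 0.36 (limma adjusted p = 0.00755). In the double mutant the same genes had log2 fold changes of 2.53 (Jon99Cii), 2.23 (Jon99Ciii), 1.95 (Jon74E), 1.31 (Jon99Fi), 4.55 (Mal-A4), 1.33 (Mal-A1) and -2.06 (Jon65Aii). No overlap with the controls was seen for 12 members that were higher in Sep2 mutants (13.4% of all genes tested) and 3 that were lower (7.49%). Whether replicate numbers pair the Sep2 mutant and control libraries is not known. With the replicate number as a block Jon99Fi was no longer called (adjusted p = 0.0626), while Mal-A6 (adjusted p = 0.0106) and Mal-A8 (adjusted p = 0.0285) were called higher. Over the alternatives the adjusted p ran from 0.00271 to 0.123 for Jon99Fi, 0.000198 to 0.265 for Mal-A6 and 0.000236 to 0.265 for Mal-A8. Quantile normalization gave 6 called higher and 2 lower. The median log2 fold change was 0.92 over maltases and 0.90 over amylases, and 0.13 over Jonah genes, which quantile normalization turned to -0.13. The count fell to 4 without Sep2 mutant replicate 1, 4 without control replicate 1 and 3 without Sep2 mutant replicate 3. Only Jon65Aii, Jon74E and Jon99Cii kept their calls under every alternative run.

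In Sep5 mutants 4 of the 29 genes were called (13.8%, against 5.13% of all genes tested), 3 higher (10.3%, against 3.89% of all genes tested) and 1 lower (3.45%, against 1.24%). Jon99Cii rose by 1.51 ± 0.30 (limma adjusted p = 0.00854), Jon99Ciii by 1.54 ± 0.37 (limma adjusted p = 0.0261) and Amy-p by 1.50 ± 0.29 (limma adjusted p = 0.00816) on the log2 scale. Amyrel fell, with a log2 fold change of -1.69 ± 0.36 (limma adjusted p = 0.0137). No overlap with the controls was seen for 8 members that were higher in Sep5 mutants (9.84% of all genes tested) and for 1 that was lower, Amyrel (5.32%). Of the 29 members, 28 had a positive log2 fold change, against 49.0% of all genes tested, with medians of 0.64 for Jonah genes, 0.56 for maltases and 1.18 for amylases. Without the TMM factor, which moves the median of all genes to -0.20, these medians were 0.45, 0.37 and 0.99, and Jon99Fii, Mal-A1, Mal-A6 and Mal-B2 turned negative. The count was 8 without control replicate 3 and 1 without Sep5 mutant replicate 3, and the calls of Jon99Cii, Jon99Ciii and Amy-p were lost in the second case (adjusted p = 0.0638, 0.173 and 0.0581). Jon99Ciii also lost its call without control replicate 1, 2 or 4 (adjusted p = 0.056 to 0.0758). Amyrel kept its call under every alternative run.

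Set directly against the Sep2 mutant, the double mutant differed in 8 members (27.6%), near the 28.9% of all genes tested. Of the 8, 7 were higher (24.1%, against 16.0% of all genes tested) and 1 was lower (3.45%, against 12.9%). Among proteases, Jon25Biii was higher by 2.28 ± 0.44 (limma adjusted p = 0.00212), Jon66Ci by 1.41 ± 0.35 (limma adjusted p = 0.00905) and Jon99Ci by 1.18 ± 0.28 (limma adjusted p = 0.00738) on the log2 scale. Among maltases, Mal-A4 was higher by 2.05 ± 0.58 (limma adjusted p = 0.0184), Mal-A7 by 1.68 ± 0.38 (limma adjusted p = 0.00526) and Mal-B2 by 0.88 ± 0.24 (limma adjusted p = 0.0147). The amylase gene Amy-p was higher by 1.16 ± 0.29 (limma adjusted p = 0.00991). Jon99Fii was the lower one, at -0.85 ± 0.26 (limma adjusted p = 0.0272). Centring on the median gave 7 higher and 0 lower, and leaving out the TMM factor gave 6 higher and 2 lower. The count fell to 4 without Sep2 mutant replicate 1 or 2, with Jon25Biii, Jon99Ci and Mal-A7 called under every alternative run. Mal-A7 passed the filter on low values through all 4 double mutant libraries and 2 of the 3 Sep2 mutant libraries, so its call is no separate support. Jon99Cii differed between the double mutant and the Sep2 mutant by 0.33 (SE 0.30, limma adjusted p = 0.402) on the log2 scale, Jon99Ciii by 0.36 (SE 0.37, limma adjusted p = 0.468) and Jon74E by 0.04 (SE 0.30, limma adjusted p = 0.93).

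Against the Sep5 mutant, the double mutant differed in 10 members (34.5%, against 8.91% of all genes tested), 6 higher (20.7%, against 5.16% of all genes tested) and 4 lower (13.8%, against 3.75%). The lower ones were all Jonah genes: Jon65Aii at -3.09 ± 0.36 (limma adjusted p = 0.000166), Jon99Fii at -1.78 ± 0.26 (limma adjusted p = 0.00113), Jon66Cii at -1.79 ± 0.46 (limma adjusted p = 0.0283) and Jon25Bi at -1.12 ± 0.30 (limma adjusted p = 0.0349). Higher were the maltases Mal-A4 at 3.30 ± 0.58 (limma adjusted p = 0.00377), Mal-A7 at 2.45 ± 0.38 (limma adjusted p = 0.00152) and Mal-B2 at 0.93 ± 0.24 (limma adjusted p = 0.0277). Amyrel was higher by 1.80 ± 0.36 (limma adjusted p = 0.00687), Jon99Ci by 1.06 ± 0.28 (limma adjusted p = 0.0323) and Jon99Cii by 1.02 ± 0.30 (limma adjusted p = 0.0467). Quantile normalization gave 4 higher and 6 lower, and leaving out the TMM factor gave 3 higher and 5 lower. The count was 5 without double mutant replicate 2, 6 without double mutant replicate 3 and 6 without Sep5 mutant replicate 2. Jon65Aii, Jon99Fii and Mal-A7 were called under every alternative run. Mal-A7 passed the filter on low values with 0 Sep5 mutant libraries above it, so its call is no separate support.

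The single mutants differed from each other in 4 members (13.8%, against 2.43% of all genes tested). Amyrel was higher in Sep2 mutants than in Sep5 mutants by 2.32 ± 0.38 (limma adjusted p = 0.00396), the 1 called higher (3.45%, against 1.13%). Jon65Aii at -2.89 ± 0.38 (limma adjusted p = 0.000818), Jon66Cii at -2.03 ± 0.50 (limma adjusted p = 0.0457) and Jon25Bii at -1.77 ± 0.36 (limma adjusted p = 0.0175) were lower in Sep2 mutants (10.3%, against 1.30%). Without the TMM factor 2 members were called higher and 2 lower. The count was 2 without Sep2 mutant replicate 3, Sep5 mutant replicate 1 or Sep5 mutant replicate 3, and Jon65Aii and Amyrel were called under every alternative run.

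The interaction asks whether the double mutant departs from the sum of both single mutant changes on the log2 scale. Septin2 itself stood at 0.270 to 9.11 CPM in the double mutants and at 21.7 to 29.4 CPM in Sep2 mutants. The bearing of this difference on the interaction, and on the double mutant against the Sep2 mutant, was not tested. limma called 0 of the 29 members, where 4.47% of all genes tested were called. At an unadjusted p under 0.05 there were 8, and voom on the recovered reads also called 0. Jon99Cii had an interaction of -1.18 (SE 0.42, limma adjusted p = 0.126), Mal-A7 of 1.47 (SE 0.54, limma adjusted p = 0.135) and Jon65Aii of -1.24 (SE 0.51, limma adjusted p = 0.184). Without Sep2 mutant replicate 3, Jon65Aii was called (adjusted p = 0.044), and without double mutant replicate 4 Amyrel was (adjusted p = 0.0399). Over the alternatives the adjusted p ran from 0.044 to 0.419 for Jon65Aii and from 0.0326 to 0.393 for Amyrel.

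Most Jonah genes were highest in the same library in control larvae and in Sep5 mutants. Control replicate 3 was the highest control for 14 of the 16 Jonah genes. Sep5 mutant replicate 3 was the highest of its genotype for 13 of 16, and Sep5 mutant replicate 2 was the lowest for 13 of 16. In the double mutants the highest value fell in replicate 2 for 9 Jonah genes and in replicate 4 for 5, and in replicate 4 for 6 of 10 maltases. In Sep2 mutants the highest value fell in replicate 1 for 5 Jonah genes, in replicate 2 for 3 and in replicate 3 for 8. The source of this spread was not tested.

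Other digestive and sugar genes were described from lists set beside the families. For all such lists, calls in the double mutant stand beside 22.5% of all genes tested called higher and 22.5% called lower. Of 16 tested trypsins, other serine proteases and cathepsins, 6 were called higher and 3 lower in the double mutant, with a median log2 fold change of 0.45 that became -0.01 without the TMM factor. zetaTry, a midgut trypsin, rose by 2.80 ± 0.39 (limma adjusted p = 0.000113) and etaTry by 1.88 ± 0.28 (limma adjusted p = 0.000219) on the log2 scale. epsilonTry had 83.3, 63.9, 103 and 66.4 CPM in the double mutants, 1190.5, 1201 and 1726 CPM in Sep2 mutants, 0.545, 0.117 and 0.224 CPM in Sep5 mutants, and 838, 389, 669 and 375 CPM in control larvae. The double mutants were below all controls and all Sep2 mutants, and the Sep5 mutants were near 0. The log2 fold change of epsilonTry was -2.78 ± 0.34 (limma adjusted p = 4.19e-05) in the double mutant and -10.65 ± 0.36 (limma adjusted p = 4.24e-10) in the Sep5 mutant. A pair of other trypsins were named after their values were seen. betaTry averaged 147 ± 71.6 CPM in the double mutants, 17.3 ± 5.76 CPM in Sep5 mutants and 512 ± 176 CPM in control larvae, with a log2 fold change of -4.89 ± 0.35 (limma adjusted p = 2.75e-06) in Sep5 mutants and -1.86 ± 0.32 (limma adjusted p = 0.000521) in the double mutant. lambdaTry had no read in any Sep5 mutant library, and 0.817, 3.82, 3.89 and 0.257 CPM in control larvae. Of the 16 tested genes of this list, 3 were called lower in Sep5 mutants (1.24% of all genes tested) and 2 higher (3.89%). The higher ones were etaTry and kappaTry, the latter named after its values were seen. Calls in Sep5 mutants were lost in 2 of 26 alternatives for etaTry, 5 for kappaTry and 5 for lambdaTry. A loss like that of epsilonTry or lambdaTry was not seen in a Jonah gene, where the lowest Sep5 mutant mean was 8.30 ± 2.79 CPM, in Jon74E.

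All 5 lipases of the list were called higher in the double mutant, with a median of 1.47. Of the 5, 3 were called without the TMM factor, with a median of 1.03. mag, a secreted gut lipase, averaged 393 ± 84.5 CPM in the double mutants and 50.9 ± 30.4 CPM in control larvae, a log2 fold change of 3.12 ± 0.36 (limma adjusted p = 3.07e-05). Lip1 rose by 2.60 ± 0.40 (limma adjusted p = 0.000258) and Lip4 by 0.90 ± 0.22 (limma adjusted p = 0.00467), though Lip4 was not called without the TMM factor (adjusted p = 0.101, range over the alternatives 0.00141 to 0.101). Lip2, named after its values were seen, also lost its call there (adjusted p = 0.169, range over the alternatives 0.000876 to 0.169), and without control replicate 1 or double mutant replicate 1 or 3. Of 9 other sugar enzymes and transporters, 1 was called higher and 3 lower, with a median of -0.13, and without the TMM factor 1 was higher and 6 lower, with a median of -0.59. The sugar transporter gene sut1 rose by 1.03 ± 0.20 (limma adjusted p = 0.00109), whereas sut4 fell, at -1.71 ± 0.34 (limma adjusted p = 0.00137), as did tobi, an alpha-glucosidase gene outside the Mal clusters, at -1.51 ± 0.42 (limma adjusted p = 0.0101). Of 13 tested regulators of sugar and gut genes, 6 were called higher and 1 lower, with a median of 0.32 that became -0.15, with 2 called higher and 3 lower, without the TMM factor. sug, which encodes a sugar-responsive zinc finger protein, rose by 2.196 ± 0.38 (limma adjusted p = 0.000577), Mondo, which encodes a sugar sensor, by 0.85 ± 0.16 (limma adjusted p = 0.000878), and the nuclear receptor gene Hnf4 by 0.84 ± 0.15 (limma adjusted p = 0.000729). Hnf4 was not called without the TMM factor (adjusted p = 0.0565). In the single mutants 0 of 5 lipases passed in either, and of the sugar genes and regulators only tobi, at -1.72 ± 0.46 (limma adjusted p = 0.0459), and srp, at -0.64 ± 0.17 (limma adjusted p = 0.045) and named after its values were seen, passed, both lower in Sep2 mutants. The call of tobi was lost in 12 of 26 alternatives (adjusted p 0.000195 to 0.16 over all of them). The call of srp was lost in 17 of 26 (adjusted p 0.0402 to 0.169), among them the replicate block (adjusted p = 0.0886).

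Most of the markers listed for midgut enterocytes, the absorptive and secretory cells that make these enzymes, were also higher in the double mutant. Whether each gene of the list marks that cell type alone was not tested. Of 8 markers, 7 were called higher and 1, nub, lower, with a median log2 fold change of 0.75. Without the TMM factor 1 was called higher and 1 lower, and the median was 0.28. Calls were lost in 18 of 26 alternatives for Vha100-4, 10 for lab and 4 for GATAe, all named after their values were seen. The remaining markers lost theirs in at most 2. The brush border myosin gene Myo61F, named after its values were seen, rose by 0.99 ± 0.19 (limma adjusted p = 0.00114), and it was the 1 marker of the 8 called in Sep5 mutants, at 0.84 ± 0.21 (limma adjusted p = 0.0322). That call in Sep5 mutants was lost in 8 of 26 alternatives, among them the one without the TMM factor (adjusted p = 0.0931), with adjusted p of 0.00841 to 0.164 over all of them. In Sep2 mutants 0 of the 8 were called. Their summed level was 611 to 970.3 CPM in the double mutants, 442 to 483 CPM in Sep2 mutants, 482 to 615 CPM in Sep5 mutants and 399 to 446 CPM in control larvae. Enteroendocrine markers had 4 of 9 called higher and 1 lower in the double mutant (0 higher and 1 lower without the TMM factor), and summed to 244 to 414 CPM there, against 312 to 623 CPM in control larvae. Markers of gut progenitors were not analysed here. Beside the 22.5% of all genes tested called in either direction alone, Malpighian tubule markers had 2 of 5 higher, fat body markers 4 of 7 higher and 1 lower, hemocyte markers 3 of 5 higher, muscle markers 6 of 6 higher and salivary gland markers 5 of 6 lower in the double mutant. Fat body markers had 0 higher under quantile normalization and 1 higher without the TMM factor, where Malpighian tubule markers had 1 higher and hemocyte markers 2. Without double mutant replicates 3 and 4, all 5 salivary gland calls were lost (limma adjusted p = 0.116 to 0.369). The call of the muscle marker Mhc, named after its values were seen, was also lost there (limma adjusted p = 0.0545). Muscle markers summed to 25533 to 52098 CPM in the double mutants and 5259 to 17349.9 CPM in control larvae, and salivary gland markers to 725 to 6179 CPM in the double mutants and 4425 to 17617 CPM in control larvae. At least 1 read was present for every marker of these lists in each genotype. Their part in the changes of digestive enzymes was not tested.

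**Figure D5:**
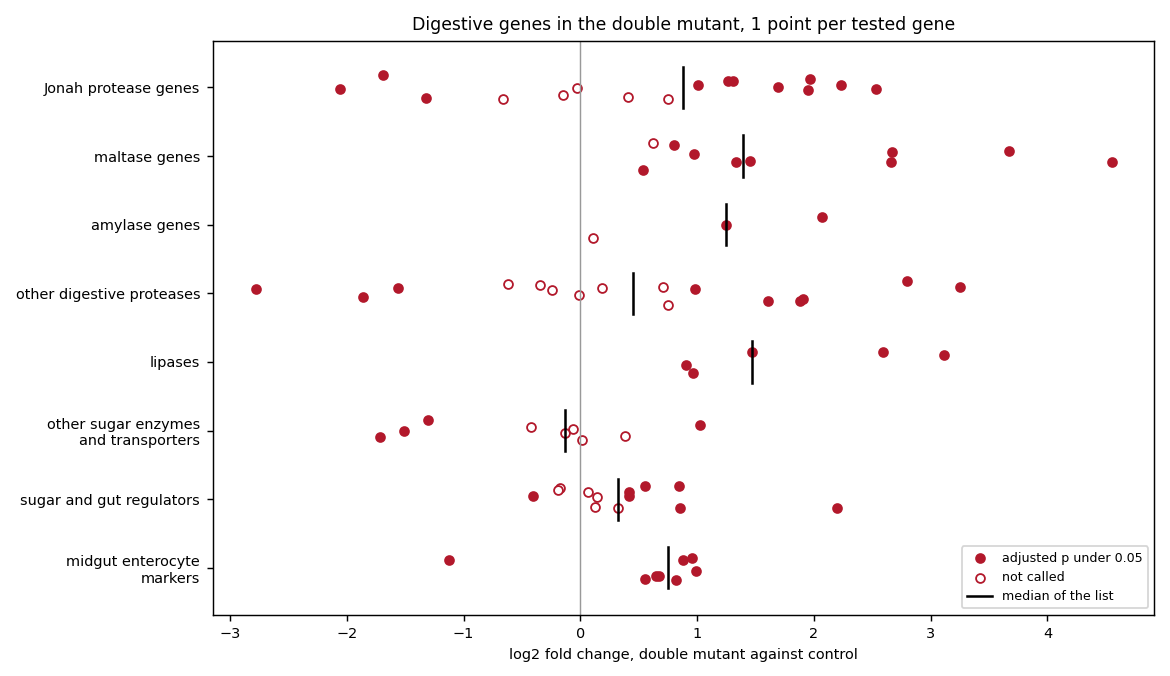
Log2 fold change of the double mutant against the control (x axis) for each tested gene of the 3 families and of 5 other lists (rows, 1 point per gene, scattered vertically for view), with the median of each list as a black line. Filled points passed an adjusted p of 0.05. The medians were 0.88 for Jonah genes, 1.39 for maltases, 1.24 for amylases, 0.45 for other digestive proteases, 1.47 for lipases, -0.13 for other sugar genes, 0.32 for regulators and 0.75 for enterocyte markers.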

How the data were processed

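Libraries were Watchmaker mRNA preparations of whole larvae, per the labels' protocols. The authors deposited log2 CPM per gene, made with edgeR 3.40 (TMM scaling and a prior count averaging 2), per the labels. The submitters' processing notes list FastQC 0.11.9, cutadapt 3.5, STAR 2.7.11b and the build BDGP6 (dm6). The assignment of reads to genes, and the use of strand in it, are not given in the sources used here. The lowest value of the table, -3.65 log2 CPM, stands for no read. The steps between low values gave whole reads for 100.0% of 250166 values (tolerance 0.01 reads), from which depths, CPM without the added count and shares of reads were computed. Positions and exon lengths came from Ensembl release 115 (BDGP6), and a level per kb divides CPM by the merged exon length.

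Genes above 0 log2 CPM in at least 3 libraries entered the fit (12586 of 17869). limma 3.58.1 in R 4.3.3, with trend and robust moderation, was fitted to all 14 libraries at once, so that genotypes shared 1 estimate of the spread, and 7 comparisons were each adjusted by Benjamini-Hochberg over all genes tested. A fold change is on the authors' log2 scale with its added count, which understates changes of low genes. In 24 seeded simulations of 12586 genes, 65 to 83 of 100 genes changed 2-fold and 98 to 100 of 100 changed 4-fold were recovered in the double mutant design. For Sep2 mutants 53 to 77 of 100, and for Sep5 mutants 48 to 70 of 100, genes changed 2-fold were recovered. In control larvae the SD of a member's CPM ran from 10.5% of its mean (Mal-A5) to 93.2% (Mal-A3). Recovery at the spread of each member was not tested. The fit is a test on log2 CPM, so no count test is a main result, and voom on the recovered reads was an alternative.

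Other alternatives were filters, 1 CPM added, quantile and median scaling, sample weights, scaling by total reads, a replicate block and leaving out libraries. Deviations of Sep2 mutant and control libraries of the same replicate number correlated at 0.305, 0.452 and 0.166. Libraries of unlike numbers were not compared, so these values cannot show whether the numbers pair libraries. The other pairs of genotypes had at least 1 correlation under 0.1. Values per library are given for each amylase gene, the 4 Jonah genes and 4 maltases of highest mean log2 CPM, and the 3 called genes of each family with the largest fold change in each direction and mutant, and Jon99Fi and Mal-A7 were added after their values were seen. The members and lists were chosen with earlier results of these data known.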

Additional observations from a re-analysis of the deposited data

Results flagged for a closer look

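Among 58 groups of 4 libraries searched, 2 were flagged for a library that stood apart from the others by Dixon's criterion for 4 values, where chance flags about 1 in 20. Jon66Cii had 840.0 CPM in control replicate 3, against 250.5 to 285 CPM in the other controls. Jon99Fi had 1810.0 CPM in double mutant replicate 2, against 1261 to 1286 CPM in the other double mutants. Both of these values are rounded to 3 digits. Taken as CPM, Jon66Ci in control replicate 3 also stood apart by the criterion (3089 CPM, where the control median was 1410 CPM). So did Jon66Cii in double mutant replicate 4 (291 CPM, where the double mutant median was 121 CPM). Neither was flagged in the search, so the 2 flagged groups are not all those that meet the criterion on CPM.

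Another 4 members responded differently to the single mutations when the single mutants were tested against each other, with limma adjusted over all genes tested. The log2 difference of Sep2 mutants from Sep5 mutants was -2.89 for Jon65Aii, which lay below all controls in Sep2 mutants and above all controls in Sep5 mutants. For Amyrel the difference was 2.32, with Sep2 mutants above and Sep5 mutants below all controls. Jon66Cii differed by -2.03 and Jon25Bii by -1.77, with no overlap between the 2 single mutants in either gene. The call for Jon66Cii was lost with the replicate block (adjusted p = 0.067).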

How the results depend on the processing

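No call of a member changed sign under any alternative run. Of the 22 calls in the double mutant against control, 17 held under all alternatives. All held in 3 of 7 calls for Sep2 mutants and 1 of 4 for Sep5 mutants against control, 3 of 8 for double against Sep2 mutants, 3 of 10 for double against Sep5 mutants and 2 of 4 for Sep2 against Sep5 mutants. With no filter the count of calls was 4 (Sep2 mutants against control), 5 (double against Sep5 mutants) and 2 (Sep2 against Sep5 mutants). With sample weights it was 18 (Sep2 mutants against control), 11 (Sep2 against Sep5 mutants) and 3 (interaction). Sample weights also moved the double mutant log2 fold change to 2.64 for Mal-A3, 3.86 for Mal-A4, 2.05 for Mal-A2 and -1.95 for Jon66Cii, and Jon44E to 0.41, no longer called. With only the libraries of both groups it was 2 for Sep5 mutants against control. Without double mutant replicates 3 and 4 it was 4 against Sep2 mutants and 4 against Sep5 mutants. Leaving out 1 library each gave 18 to 23 calls for double mutants against control, 3 to 8 calls for Sep2 mutants against control, 1 to 8 calls for Sep5 mutants against control, 4 to 9 calls for double against Sep2 mutants, 5 to 12 calls for double against Sep5 mutants, 2 to 5 calls for Sep2 against Sep5 mutants and 0 to 1 calls for the interaction. Without the TMM factor, a setting chosen after seeing the data, calls were 19 in the double mutant against control. The replicate block gave 23 calls for the double mutant against control (Jon25Bi and Mal-A6 gained, Jon44E lost), 9 for double against Sep2 mutants (Mal-A3 gained) and 4 for Sep2 against Sep5 mutants (Jon25Bi gained, Jon66Cii lost). Besides the changes in Sep2 mutants given above, the block changed no other call of a member. In every comparison the libraries are known to share only a replicate number. Leaving ribosomal RNA out of the total gave Jonah shares of 2.38% in the double mutants, 1.90% in Sep2 mutants, 2.24% in Sep5 mutants and 1.47% in control larvae. The double mutants and the controls then no longer overlapped. Where these values moved, the cause was not tested. With 3 or 4 libraries a group, changes of 2-fold were often missed in the simulated data, so uncalled members cannot be taken as equal between genotypes.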
